A study of Mus musculus with 14 samples.

Results

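The genes of sterol and fatty acid synthesis described here are 28 symbols of the mouse count table, taken by name from a list, out of 55291 symbols in all. They fall into 6 genes of the mevalonate arm (Hmgcs1, Mvk, Pmvk, Mvd, Idi1 and Fdps), 3 that lead from farnesyl diphosphate to lanosterol (Fdft1, Sqle and Lss), 8 that lead from lanosterol to cholesterol (Cyp51, Tm7sf2, Msmo1, Nsdhl, Hsd17b7, Ebp, Sc5d and Dhcr7), 4 regulators (Srebf1, Srebf2, Insig1 and Insig2), the sterol carrier Stard4, and 6 genes of acetyl-CoA supply and fatty acid synthesis (Acly, Acss2, Acaca, Fasn, Scd1 and Scd2). All 28 passed the filter on low counts.

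The mevalonate arm builds isoprenoid units from acetyl-CoA, farnesyl diphosphate is joined into squalene, and squalene is closed to lanosterol, which a chain of endoplasmic reticulum enzymes turns into cholesterol. The transcription factors SREBP-1 and SREBP-2, encoded by Srebf1 and Srebf2, are held in the endoplasmic reticulum with Scap while sterols are plentiful, with the Insig proteins as the retaining partners, and are carried to the Golgi, cleaved and released to the nucleus when sterols run low. SREBP-2 is known mainly for the sterol genes and SREBP-1c for the fatty acid genes, whose transcription also responds to insulin and to the oxysterol receptor LXR. The retinal pigment epithelium (RPE) takes up and degrades lipid-rich photoreceptor tips, and astrocytes are known as a main site of sterol synthesis in neural tissue.

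The study turned fibroblasts into RPE cells with small molecules. All 14 libraries used here carried the C57BL/6J genotype and the tissue label of E13.5 embryos. The 3 MEF libraries are the starting mouse embryonic fibroblasts, although their label also names the M7 reprogramming medium. The 3 day 7 and 3 day 18 libraries (D7 and D18) are intermediates in M7 medium, which held N2, B27 without vitamin A, bovine serum albumin at 7.5%, bFGF and 7 small molecules. These were CHIR-99021 (against GSK3), LDN193189 (against BMP receptors), A 83-01 (against TGF-beta receptors), Hh-Ag1.5 (which activates hedgehog signalling), RG108 (against DNA methyltransferases), BMS-345541 (against IKK) and CKI-7 (against casein kinases). The 3 day 32 libraries (D32), labelled ciRPE, were in M3 medium, which held knockout serum replacement (KSR) at 10% in place of N2 and B27, with Y27632, nicotinamide, retinoic acid, Activin A and 2-mercaptoethanol. The 2 P-RPE libraries are primary RPE with no treatment. Medium and day change together between D18 and D32, so their parts cannot be told apart. Cells were scraped where induction looked successful, so the induced libraries stand for picked cells. Nothing in the labels says that replicates were separate cultures or animals, so the p-values measure only the spread between these libraries, which may be technical.

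Library totals ran from 32352405 to 41390196 counts, so 1 count was worth 0.0227 to 0.0305 CPM, the count scaled by library size. The 10 RPE markers summed to 1.11 CPM in MEF, 3.21 in D7 and 8.53 in D18, to 3097 to 5976 CPM in the D32 libraries and to 38662 CPM in P-RPE, so the D32 level was 11% of that in P-RPE. P-RPE also held 6 macrophage and microglia markers at 1099 CPM, 5 red cell markers at 1376 CPM and 5 rod markers at 1655 CPM in sum. In D32 these 3 lists summed to 163, 143 and 27.9 CPM, or 14.8%, 10.4% and 1.68% of P-RPE. They summed to 6.80, 0.217 and 3.98 CPM in D18 and to 35.8, 0.388 and 0.802 CPM in MEF. The parts of such cells in the D32 and P-RPE values, the RPE marker level among them, were not tested. The 6 astrocyte markers summed to 17.5 CPM in MEF, 1269 in D7, 30896 in D18, 1999 in D32 and 398 in P-RPE. The 6 fibroblast markers summed to 10630, 5372, 4792, 9565 and 708 CPM in the same order, with D18 libraries from 1577 to 6560 CPM. The 6 markers of dividing cells summed to 758, 193, 19.6, 240 and 24.7 CPM. Of the 10 RPE markers, 4 had 0 counts in all MEF libraries. Endothelial and Schwann markers were highest in P-RPE, at 498 CPM (5 genes) and 357 CPM (4 genes), and skeletal muscle markers in MEF, at 134 CPM (5 genes). Endothelial markers summed to 53.5 CPM in MEF, 4.05 in D18 and 87.5 in D32. In these bulk libraries, fewer cells of a type and less RNA per cell cannot be told apart.

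The windows upstream of the start sites are shown first, because the sterol genes are textbook targets of SREBP acting beside nuclear factor Y. RefSeq windows (GRCm38.p6) from 250 bases before to 50 bases after a start site were found for 22 of the 28 genes. Of the 29 windows, 24 held bases after the start that matched a protein-coding transcript of the same gene. CCAAT, the motif of nuclear factor Y, was searched on both strands together with GGGCGG (Sp factors), the E-box CACGTG and the sterol regulatory motif TCACNCCAC. Each motif was counted on its own, so that matches to different motifs may overlap. CCAAT was present in 21 of the 22 genes (95.5%). It was present in 41.1% of all 27025 genes with a window and in 42% of the 13921 tested genes with one. Acaca was the exception, but its only window, chr11:84195188-84195437, lies inside the gene, whose annotated start on the plus strand is 84129672. Bases upstream of that annotated start were not searched, so the absence of motifs in Acaca covers this inner window alone. GGGCGG was present in 19 of 22 (86.4%), against 38% of all genes and 61.3% of tested genes. CACGTG was present in 4 of 22 (18%: Dhcr7, Hsd17b7, Insig1 and Sc5d), against 8.09% and 10.6%. TCACNCCAC was present in Hmgcs1 alone of the 22 (4.55%), against 1.44% and 1.48%. A match is a description of letters and not a binding site. Below are the 250 bases upstream of 4 start sites, 5′ to 3′ along the gene's strand, chosen because Hmgcs1 holds the sterol motif, Mvk holds the most CCAAT copies (5), Sc5d fell and rose by more than 2-fold, and Fasn fell at each of the same steps. Capitals mark CCAAT on either strand (ATTGG on the other strand) and, in Hmgcs1, TCACNCCAC, whose first base lies 137 bases before the start.
Hmgcs1, chr13:119690101-119690350, plus strand: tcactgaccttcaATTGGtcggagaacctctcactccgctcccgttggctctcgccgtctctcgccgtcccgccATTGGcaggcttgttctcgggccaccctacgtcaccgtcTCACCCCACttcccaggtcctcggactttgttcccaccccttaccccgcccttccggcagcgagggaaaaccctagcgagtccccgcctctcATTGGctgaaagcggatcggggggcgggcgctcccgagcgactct
Mvk, chr5:114444019-114444268, plus strand: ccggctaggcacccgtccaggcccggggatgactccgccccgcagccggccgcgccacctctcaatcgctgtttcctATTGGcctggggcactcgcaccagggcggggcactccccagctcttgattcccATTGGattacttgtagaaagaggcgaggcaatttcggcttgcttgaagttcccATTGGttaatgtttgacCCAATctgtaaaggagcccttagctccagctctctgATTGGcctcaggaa
Sc5d, chr9:42264301-42264550, minus strand: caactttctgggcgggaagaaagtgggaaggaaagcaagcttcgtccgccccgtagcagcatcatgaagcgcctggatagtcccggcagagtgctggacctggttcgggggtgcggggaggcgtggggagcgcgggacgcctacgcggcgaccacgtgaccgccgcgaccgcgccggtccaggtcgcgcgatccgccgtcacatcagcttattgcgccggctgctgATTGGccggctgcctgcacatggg
Fasn, chr11:120824548-120824797, minus strand: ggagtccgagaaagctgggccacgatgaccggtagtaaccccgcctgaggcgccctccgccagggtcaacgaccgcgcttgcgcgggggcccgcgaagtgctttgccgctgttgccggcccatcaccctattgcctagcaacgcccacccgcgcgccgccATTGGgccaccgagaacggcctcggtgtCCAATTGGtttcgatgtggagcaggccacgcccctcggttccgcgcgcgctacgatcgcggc

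Most of the sterol enzymes were lower at D7 than in MEF, and most rose from D7 to D18, but the calls fell in part on different genes. Idi1, Fdps, Lss and Cyp51 fell by D7 and their rise to D18 did not pass. The Idi1 rise, 0.47 (log2, edgeR adjusted p = 0.064), was as large as the called rise of Mvk. It passed under RLE size factors, a minimum mean of 5 CPM, the replicate block or DESeq2. The same held without D7 replicate 3, D32 replicate 1 or 2, or all D32 libraries. The Lss rise passed with a minimum mean of 5 CPM (edgeR adjusted p = 0.045). Hmgcs1, Pmvk, Sqle and Ebp rose to D18 with no call at D7, and Tm7sf2 rose at both steps. The genes that commit acetyl-CoA to fatty acids, Acaca and Fasn, fell at both steps. Against MEF, 17 of the 28 genes were lower at D7 and 5 were higher at adjusted p under 0.05 in edgeR's quasi-likelihood test, where 26.5% of the 20562 genes tested were lower and 28.5% higher. By 2-fold or more, 8 fell, where 12.8% of all genes did, and 2 rose (Srebf1 and Acss2), where 19.5% did. Without D7 replicate 2, 1 rose that far. The median log2 change of the 28 was -0.60, beside 0.04 over all genes tested. From D7 to D18, 16 of the 28 rose and 2 fell, against 29.2% and 27.4% of all genes, and 7 of the 16 rose by 2-fold or more, against 19% of all genes. The largest fall, of Fasn, was 0.78 on the log2 scale, while 13.9% of all genes fell by 2-fold or more. The median log2 change of the 28 was 0.47, beside 0 over all genes. Of the 17 sterol enzymes, 11 fell and 2 rose by D7, and leaving out D7 replicate 3 made the rising count 1. To D18, 12 of the 17 then rose and the other 5 did not pass, with all 17 estimates above 0. With library totals as the only scaling, the median of all genes moved by 0.32 (log2) in D7 against MEF, the median of the 28 became -0.29 and 3 genes in place of 8 fell by 2-fold or more. From D7 to D18 it moved the median of all genes by -0.19 (log2), and 1 of the 28 in place of 7 rose by 2-fold or more. Astrocyte markers rose and dividing-cell markers fell over the same steps, and their part in these changes was not tested.

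**Figure D1:**
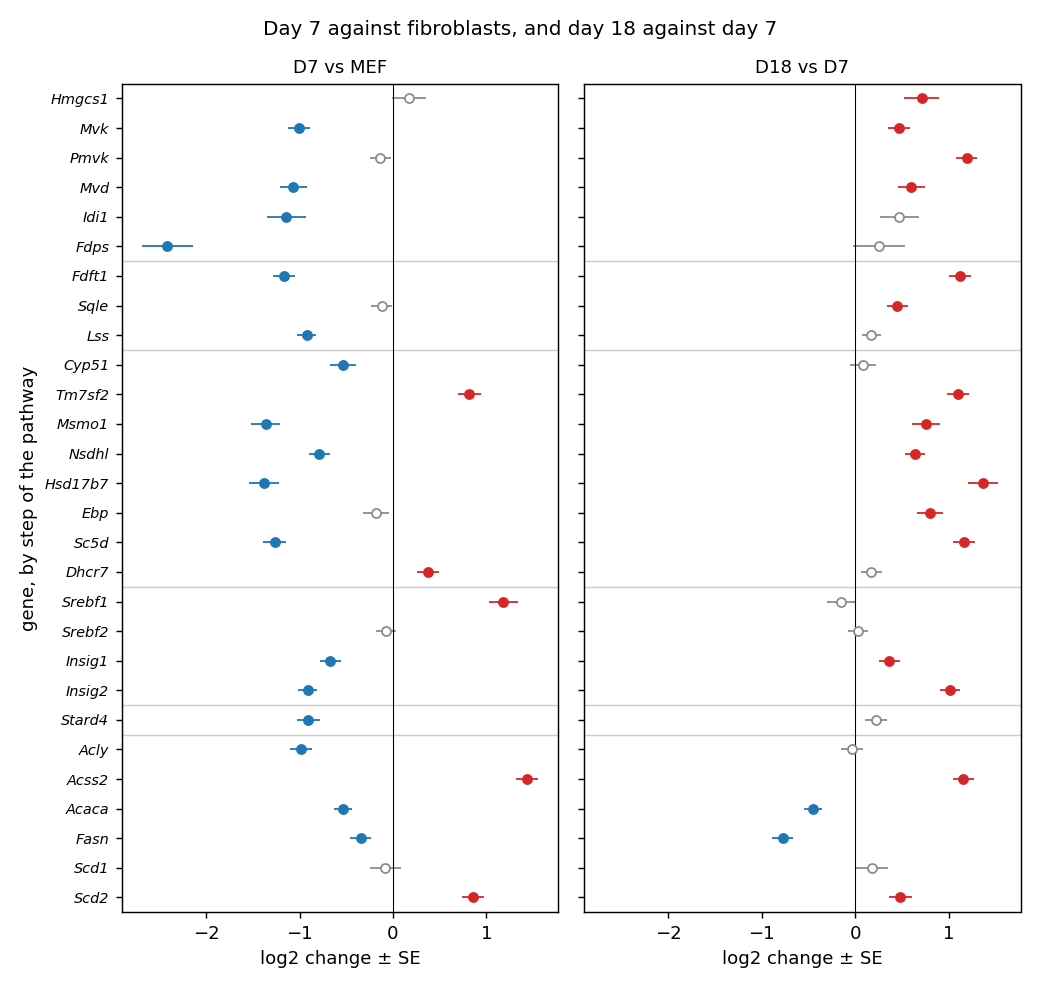
The log2 change (edgeR, with its standard error) of each gene in D7 against MEF (left) and D18 against D7 (right), in pathway order from top to bottom with grey lines between the arms; red is higher and blue lower at adjusted p under 0.05, and open grey points did not pass. Left of the line in the first panel are 17 blue points, and right of it in the second are 16 red ones.

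From D18 to D32, under the change of medium, 11 of the 28 fell and 3 rose, against 26.1% and 29.9% of all genes. By 2-fold or more, Acss2 and Scd2 fell (15.9% of all genes) and Fdps rose (18%). D32 compared with MEF gave 11 lower and 5 higher, against 24.6% and 35.6%, with Fasn the 1 gene lower by 2-fold or more (10.4% of all genes) and Tm7sf2 and Acss2 higher by as much (26%). Single libraries moved these counts. Leaving out any of the MEF libraries or D7 replicate 1 left 3 higher genes, and leaving out MEF replicate 2 or D32 replicate 3 left 7 lower ones. Leaving out any D7 library, D18 replicate 2 or D32 replicate 2 put 2 genes at 2-fold lower. With library totals alone it gave 7 lower and 8 higher. D32 compared with P-RPE gave 11 higher and 4 lower, against 27.1% and 26.8%, with 6 higher (17%) and 1 lower (16.9%) by 2-fold or more, and leaving out D32 replicate 2 raised the lower genes to 8. P-RPE compared with MEF gave 18 lower and 8 higher, against 31.4% and 39.3%, with 9 lower (21.3%) and 3 higher (31.6%) by 2-fold or more and a median log2 change of -0.66 beside 0.18 over all genes. These 2 comparisons share the P-RPE libraries, and the comparisons with MEF share the MEF libraries. By group mean, 15 of the 28 genes were highest in MEF, 8 in D18, 4 in P-RPE and 1 in D32, and the lowest mean was in P-RPE for 12 genes and in D7 for 10. The same order was not counted over all genes, so whether these counts are particular to the 28 is not known.

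**Figure D2:**
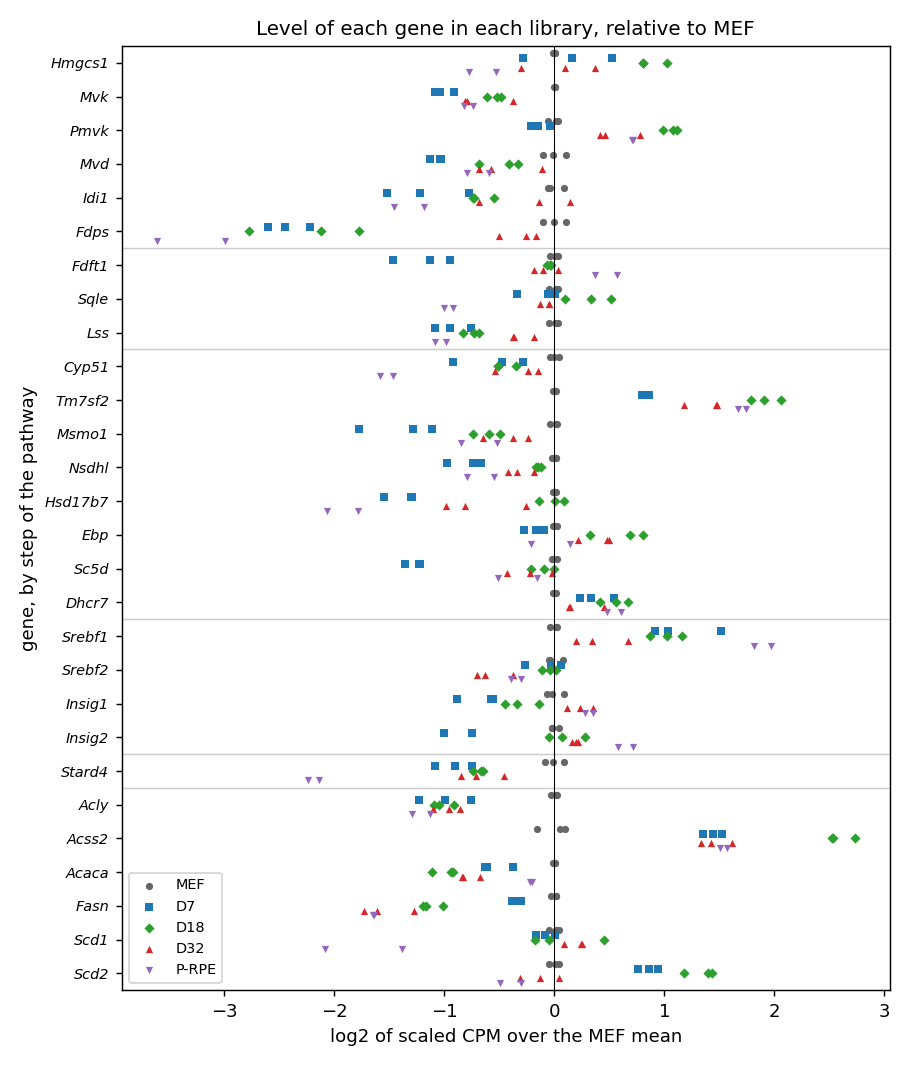
Each point is the scaled CPM of a gene in 1 library, as log2 of its ratio to the mean of the 3 MEF libraries; rows follow the pathway and grey lines separate its arms. Blue squares (D7) lie left of 0 for most of the sterol genes, and Tm7sf2, Dhcr7, Srebf1 and Acss2 lie right of 0 in all 11 libraries that are not MEF.

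Summed over the 17 sterol enzymes, the scaled level was 1070.5 ± 10.9 CPM in MEF (SD, n = 3), 703 ± 100.3 in D7 (SD, n = 3), 1097 ± 23.0 in D18 (SD, n = 3), 949 ± 48.8 in D32 (SD, n = 3) and 741 ± 48.0 in P-RPE (SD, n = 2). The D7 libraries, at 709, 599 and 800 CPM, lay below all MEF and D18 libraries, and they were the most spread. D7 replicate 2 was the lowest of the D7 libraries in 16 of the 28 genes and D7 replicate 3 the highest in 19. The 6 genes of fatty acid synthesis took another course: 2463 ± 26.3 CPM in MEF (SD, n = 3), 2820 ± 58.0 in D7 (SD, n = 3), 3268 ± 139.0 in D18 (SD, n = 3), 1668 ± 83.7 in D32 (SD, n = 3) and 1330 ± 71.8 in P-RPE (SD, n = 2). Scd2 made up most of that sum in each group other than MEF, with means of 937 CPM in MEF, 1696 in D7, 2373 in D18, 857 in D32 and 713 in P-RPE. The peak of the sum at D18 is thus that of Scd2. Its low values in D32 and P-RPE also hold lower Fasn and Acly. Fasn averaged 782 CPM in MEF, 271 in D32 and 250 in P-RPE, and Acly 410, 209 and 177. Of the 6 genes, 3 were lower and 1 was higher in D32 than in MEF.

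**Figure D3:**
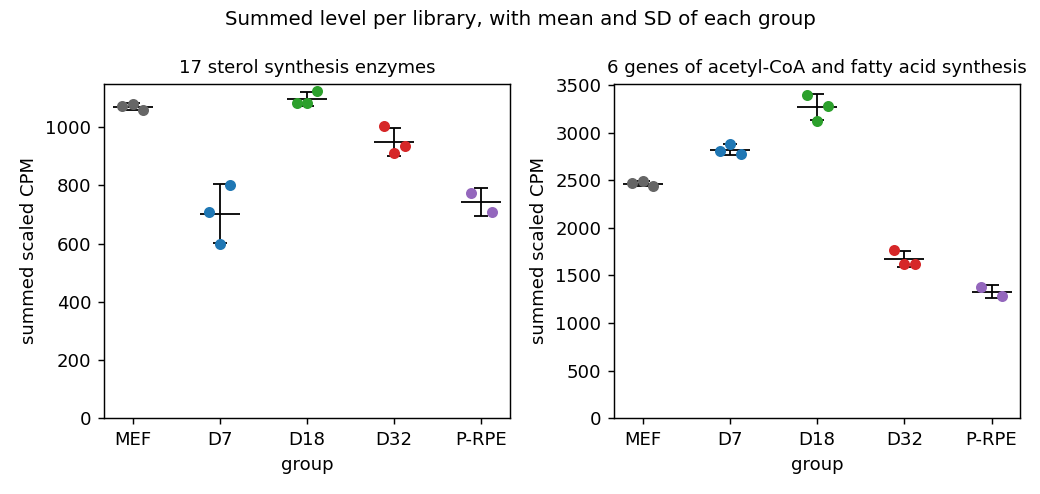
Summed scaled CPM of the 17 sterol enzymes (left) and the 6 genes of fatty acid synthesis (right); points are libraries and black marks the mean with its SD, on axes that start at 0. The sterol sum dips to 599 to 800 CPM at D7, and the fatty acid sum peaks at D18 and is lowest in P-RPE.

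In the mevalonate arm, 4 of 6 genes fell by D7: Mvk and Mvd, which phosphorylate and decarboxylate mevalonate derivatives, Idi1, the isopentenyl diphosphate isomerase, and Fdps, which makes farnesyl diphosphate. Mvk stood at 58.9, 58.9 and 58.7 CPM in MEF and at 27.8, 28.6 and 31.3 CPM in D7. The groups did not overlap, and the log2 change was -1.01 (SE 0.12, edgeR adjusted p = 3.4e-06). Mvk then rose to 42.1, 38.6 and 41.1 CPM in D18, a log2 change of 0.47 (SE 0.12, edgeR adjusted p = 0.0028), and stayed under every MEF library in D18, D32 and P-RPE. Mvd followed the same course, from 47.0 to 54.4 CPM in MEF to 23.0 to 24.7 in D7 and 31.5 to 40.2 in D18.

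Hmgcs1, the synthase at the head of the arm, did not pass at D7. Its levels were 104, 104 and 105 CPM in MEF and 117, 85.3 and 150 CPM in D7, so the D7 libraries spanned the MEF ones. At D18 it reached 182, 182 and 212 CPM, above every other library, with a log2 change of 0.71 over D7 (SE 0.18, edgeR adjusted p = 0.0041). It then fell by 0.80 on the log2 scale by D32 (SE 0.18, edgeR adjusted p = 0.0018), to 135, 84.4 and 111 CPM, and P-RPE was lowest at 72.0 and 60.7 CPM. Without P-RPE replicate 2, its differences from P-RPE did not pass (edgeR adjusted p = 0.087 for D32 and 0.11 for MEF). Pmvk, the phosphomevalonate kinase, was the other gene of the arm with its top at D18: it held 18.8, 17.6 and 18.6 CPM in MEF, 16.5, 15.8 and 17.8 in D7 and 39.7, 36.3 and 38.8 in D18. Its rise of 1.19 (log2, SE 0.11, edgeR adjusted p = 4.4e-07) from D7 to D18 left no overlap. Pmvk was also higher in P-RPE than in MEF, by 0.71 (log2, SE 0.12), where the other 5 genes of the arm were lower.

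Fdps had the widest range of the 28 genes, with a 9.67-fold ratio of its highest to its lowest group mean, at low levels throughout. It stood at 6.00, 5.56 and 5.19 CPM in MEF, 1.20, 1.02 and 0.918 in D7, 0.815, 1.63 and 1.28 in D18, 4.68, 3.93 and 4.99 in D32, and 0.700 and 0.456 in P-RPE. It was thus near its MEF level in D32 alone, and the rise from D18 to D32 was 1.86 (log2, SE 0.27, edgeR adjusted p = 3.4e-05). D32 was above P-RPE by 2.97 (log2, SE 0.34, edgeR adjusted p = 4.1e-06). The Fdps count is uncertain. Its transcripts matched 4 processed pseudogenes over at least 300 bases at 95% identity or more, it shares 26.7% of its exon bases with Gm43738 on the same strand, and how reads matching several genes were counted is not given in the sources used here. The 4 pseudogenes held 68 counts against 581 for Fdps over the MEF libraries, and 10 against 42 over P-RPE. Idi1 has 2 such pseudogenes, which held 8 counts against 2355 in MEF. Idi1 followed Fdps in order, with means of 22.6 CPM in MEF, 10.3 in D7, 14.2 in D18, 19.8 in D32 and 9.11 in P-RPE.

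Among the 3 genes from farnesyl diphosphate to lanosterol, Fdft1, the squalene synthase, moved most. Its levels were 101, 106 and 105 CPM in MEF, 47.4, 37.6 and 53.7 in D7, 102, 101 and 99.4 in D18, 96.9, 106 and 91.5 in D32, and 154 and 135 in P-RPE. It fell by 1.17 on the log2 scale by D7 (SE 0.12, edgeR adjusted p = 7.6e-07) and rose by 1.12 to D18 (SE 0.12, edgeR adjusted p = 1.2e-06). The D18 mean of 101 CPM was close to the MEF mean of 104 CPM. It was the sole gene of these 3 that was higher in P-RPE than in MEF (log2 change 0.47, SE 0.13, edgeR adjusted p = 0.0039), a call lost without P-RPE replicate 1 (edgeR adjusted p = 0.058). Fdft1 shares 774 exon bases with Ctsb on the opposite strand, and no strand setting is given in the sources used here, so reads of the pair may be mixed. Sqle, the squalene epoxidase that opens the oxygen-dependent part of the pathway, did not pass at D7. It held 136, 138 and 130 CPM in MEF, 129, 107 and 136 in D7, 170, 144 and 193 in D18, 130, 123 and 131 in D32, and 71.3 and 67.1 in P-RPE. Lss, which closes the ring of lanosterol, fell by 0.92 (log2, SE 0.10) by D7, did not pass from D7 to D18, and rose by 0.44 (log2, SE 0.10, edgeR adjusted p = 0.0014) by D32. Sqle and Lss were both higher in D32 than in P-RPE, by 0.89 and 0.73 on the log2 scale.

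Of the 8 genes from lanosterol to cholesterol, 5 fell by D7 and 6 rose from D7 to D18. Hsd17b7, the ketosteroid reductase of C4 demethylation, made the widest swing. It stood at 65.1, 64.6 and 64.0 CPM in MEF, 26.3, 22.1 and 26.2 in D7, 58.8, 68.6 and 64.9 in D18, 53.8, 32.6 and 36.7 in D32, and 18.7 and 15.4 in P-RPE. The log2 change by D7 was -1.38 (SE 0.16, edgeR adjusted p = 3.2e-06), and the rise to D18 was 1.37 (SE 0.16, edgeR adjusted p = 3.5e-06). P-RPE was below every other library. Msmo1 and Nsdhl, which act in the same demethylation, and Sc5d, the lathosterol desaturase, also fell and rose. Sc5d went from 82.8, 80.2 and 80.8 CPM in MEF to 34.7, 31.6 and 34.9 in D7 and 76.2, 70.2 and 81.2 in D18. The fall was 1.27 on the log2 scale and the rise 1.17, both past the test. Msmo1 went from 103 to 107 CPM in MEF to 30.9 to 48.9 in D7 and 63.5 to 75.1 in D18, and so did not regain its MEF level.

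Tm7sf2 and Dhcr7 went the other way at D7. Tm7sf2 is a sterol C14 reductase. Its levels were 7.67, 7.63 and 7.55 CPM in MEF, 13.2, 13.8 and 13.2 in D7, 31.9, 26.2 and 28.6 in D18, 17.3, 21.2 and 21.2 in D32, and 25.4 and 24.17 in P-RPE. It was above every MEF library in all 4 other groups, with log2 changes of 0.82 (SE 0.12, edgeR adjusted p = 4.1e-05) by D7 and 1.11 (SE 0.12, edgeR adjusted p = 1.6e-06) from D7 to D18, and of 1.70 (SE 0.13, edgeR adjusted p = 2.1e-08) in P-RPE against MEF. It shares 12% of its exon bases with Vps51 on the same strand. Dhcr7, the last reductase of the Kandutsch-Russell route, rose by 0.38 (log2, SE 0.12, edgeR adjusted p = 0.012) by D7, which did not pass without D7 replicate 3 (edgeR adjusted p = 0.095). Ebp, the sterol isomerase, did not pass at D7 (log2 change -0.18, SE 0.14) and rose by 0.80 (log2, SE 0.14, edgeR adjusted p = 0.00017) to D18. Cyp51, the lanosterol demethylase, fell by 0.54 (log2, SE 0.14, edgeR adjusted p = 0.0042) by D7, did not pass from D7 to D18 or from D18 to D32, and was lowest in P-RPE at 46.9 and 43.1 CPM. The D32 libraries, at 117, 89.0 and 110 CPM, lay above P-RPE by 1.22 on the log2 scale (SE 0.16, edgeR adjusted p = 1.7e-05). Under library totals alone the Cyp51 fall at D7 did not pass (edgeR adjusted p = 0.22).

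The regulators did not move as a block. Srebf1 held 141, 140 and 134 CPM in MEF, 283, 395 and 261 in D7, 309, 282 and 253 in D18, 175, 220 and 159 in D32, and 488 and 541 in P-RPE. All libraries of the other 4 groups lay above MEF, and P-RPE lay above them all. The log2 change was 1.18 (SE 0.16, edgeR adjusted p = 1.3e-05) by D7 and 1.90 (SE 0.17, edgeR adjusted p = 1e-07) in P-RPE against MEF. D32 was under P-RPE by a log2 change of -1.48 (SE 0.17, edgeR adjusted p = 3.8e-06). The excess of D32 over MEF, 0.42 (log2, SE 0.15, edgeR adjusted p = 0.029), did not pass under 8 of the alternatives, leaving out D32 replicate 2 among them (edgeR adjusted p = 0.13). Isoforms of Srebf1 are summed in this table.

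Srebf2 held 300, 329 and 302 CPM in MEF, 304, 257 and 323 in D7, 314, 288 and 301 in D18, 190, 239 and 201 in D32, and 237 and 252 in P-RPE. The first 3 groups overlapped, with a log2 change of -0.07 (SE 0.11) by D7 and 0.03 (SE 0.11) from D7 to D18, over the stages at which most of the sterol enzymes moved. Under library totals alone the first of these reads 0.24 (edgeR adjusted p = 0.0488). Srebf2 fell by 0.52 on the log2 scale from D18 to D32 (SE 0.11, edgeR adjusted p = 0.0011). The ratio of Srebf1 to Srebf2 within a library does not depend on scaling. Its means were 0.446 in MEF, 1.09 in D7, 0.935 in D18, 0.877 in D32 and 2.10 in P-RPE, with 0.931, 1.54 and 0.807 in the D7 libraries.

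Both Insig genes fell by D7 with the enzymes. Insig1 held 84.5, 90.7 and 81.6 CPM in MEF, 58.0, 46.2 and 57.2 in D7, 67.6, 77.5 and 62.6 in D18, 109, 92.7 and 101 in D32, and 104 and 109 in P-RPE. Insig2 held 45.0, 45.2 and 47.1 CPM in MEF, 22.8, 27.2 and 22.8 in D7, 44.4, 47.9 and 55.3 in D18, 53.0, 52.5 and 51.1 in D32, and 75.1 and 68.4 in P-RPE. The D7 libraries lay below all MEF libraries for both, with log2 changes of -0.67 (SE 0.11) and -0.91 (SE 0.11). From D7 to D18 Insig2 rose by 1.02 (log2, SE 0.11, edgeR adjusted p = 1.1e-06) and Insig1 by 0.36 (log2, SE 0.11, edgeR adjusted p = 0.011). The Insig1 rise did not pass without D7 replicate 2 or D18 replicate 2 (edgeR adjusted p = 0.070 and 0.063). Under library totals alone it was 0.15 (log2) and did not pass either (edgeR adjusted p = 0.29). Insig1 rose by 0.54 (log2, SE 0.11, edgeR adjusted p = 0.00073) from D18 to D32. Insig2 was higher in P-RPE than in MEF by 0.65 (log2, SE 0.12, edgeR adjusted p = 0.00014) and higher than in D32 (edgeR adjusted p = 0.0037, and 0.15 under library totals alone). Insig1 was higher in P-RPE than in MEF by 0.32 (log2, edgeR adjusted p = 0.032), a call lost under 11 of the alternatives.

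**Figure D4:**
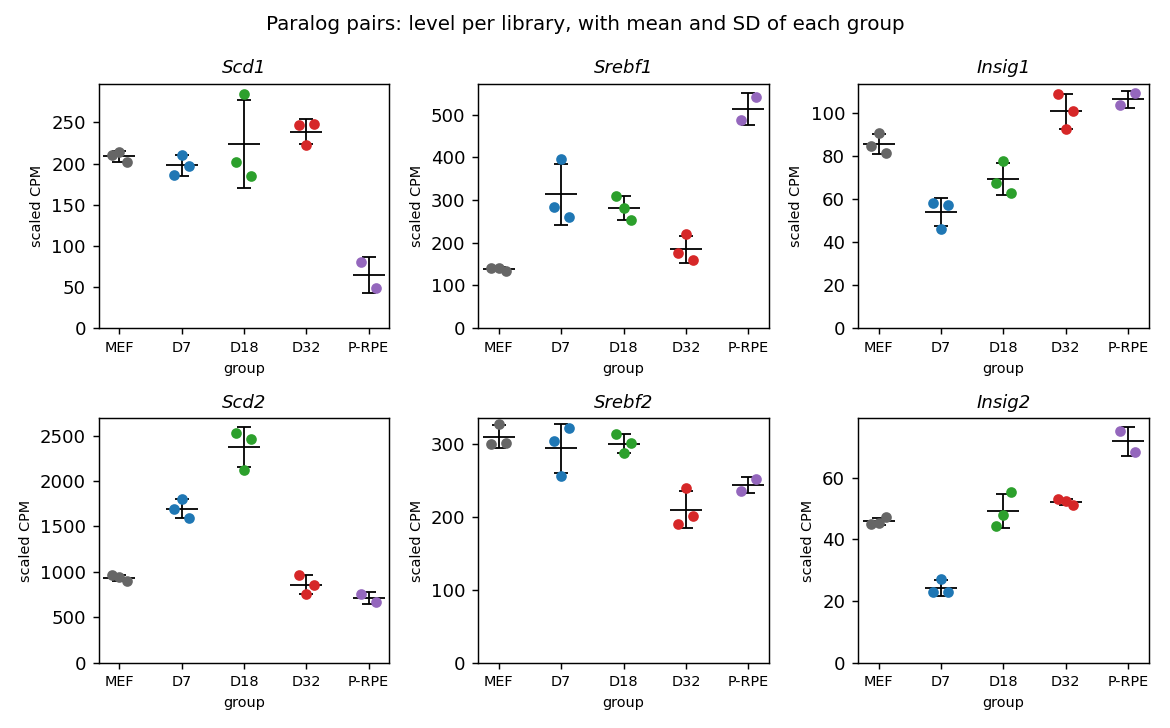
Scaled CPM per library of Scd1 and Scd2 (left), Srebf1 and Srebf2 (middle) and Insig1 and Insig2 (right), with the mean and SD of each group in black, on axes that start at 0. Scd2 peaks at D18 while Scd1 does not, Srebf1 is highest in P-RPE while Srebf2 is not, and both Insig genes are lowest at D7.

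Stard4, which carries cholesterol between membranes, was lowest in P-RPE. It stood at 44.0, 47.0 and 41.7 CPM in MEF, 20.8, 23.7 and 26.3 in D7, 28.2, 27.9 and 26.6 in D18, 32.17, 24.6 and 27.0 in D32, and 9.35 and 10.0 in P-RPE. No library of another group reached the MEF values, and P-RPE lay below all. The log2 change in P-RPE against MEF was -2.19 (SE 0.15, edgeR adjusted p = 4.6e-09), and D32 was above P-RPE by 1.53 (log2, SE 0.14, edgeR adjusted p = 5.5e-07). Stard4 did not pass from D7 to D18 (log2 change 0.22, SE 0.12) or from D18 to D32.

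Among the fatty acid genes, the acetyl-CoA sources moved apart. Acly makes acetyl-CoA from citrate. It held 400, 416 and 413 CPM in MEF and between 168 and 242 CPM in every other library, and it fell by 0.98 on the log2 scale by D7 (SE 0.12, edgeR adjusted p = 5e-06) with no later step past the test. Acss2, which makes it from acetate, held 7.40, 8.82 and 8.57 CPM in MEF, 21.1, 22.4 and 23.8 in D7, 54.9, 48.0 and 47.5 in D18, 22.2, 25.3 and 20.8 in D32, and 23.5 and 24.5 in P-RPE. It rose by 1.44 (log2, SE 0.12, edgeR adjusted p = 9.9e-08) and again by 1.16 (log2, SE 0.12, edgeR adjusted p = 7e-07), then fell by 1.14 on the log2 scale by D32 (SE 0.12, edgeR adjusted p = 8.7e-07). Its range of group means, 6.06-fold, was second to that of Fdps. Acly remained the more abundant per kilobase of exon in each group, with means of 38.4 CPM per kilobase against 4.93 for Acss2 in D18.

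Acaca and Fasn, which make malonyl-CoA and the fatty acid chain, fell by D7 and fell again by D18. Fasn held 764, 790 and 791 CPM in MEF, 615, 599 and 632 in D7, 348, 388 and 341 in D18, 255, 323 and 236 in D32, and 248 and 251 in P-RPE. Groups from MEF to D32 did not overlap, and the log2 changes of the 3 steps were -0.35 (SE 0.11, edgeR adjusted p = 0.018), -0.78 (SE 0.11, edgeR adjusted p = 3.6e-05) and -0.40 (SE 0.11, edgeR adjusted p = 0.0074). The first was lost without MEF replicate 2 or 3 (edgeR adjusted p = 0.051 in both) and under library totals alone (edgeR adjusted p = 0.85). D32 and P-RPE did not differ past the test for Fasn (log2 difference 0.12, SE 0.13). Acaca held 116 to 118 CPM in MEF, 75.8 to 90.1 in D7, 54.4 to 62.1 in D18, 65.4 to 73.5 in D32, and 102 and 101 in P-RPE, so that D32 was below P-RPE by a log2 change of -0.57 (SE 0.10, edgeR adjusted p = 0.00031). Under library totals alone the Acaca change at D7 was -0.22 (log2) and did not pass (edgeR adjusted p = 0.070). Acaca has a near-identical pseudogene, Gm5182, with 58 counts against 12224 in MEF.

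Scd1 and Scd2, the stearoyl-CoA desaturases that place the first double bond, diverged. Scd2 held 966, 941 and 903 CPM in MEF, 1698, 1802 and 1588 in D7, 2534, 2122 and 2462 in D18, 963, 753 and 855 in D32, and 759 and 666 in P-RPE. D7 lay above MEF and D18 above D7 with no overlap, and the log2 changes were 0.86 (SE 0.12, edgeR adjusted p = 2.5e-05), 0.48 (SE 0.12, edgeR adjusted p = 0.003) and, from D18 to D32, -1.47 (SE 0.12, edgeR adjusted p = 1.2e-07). Under library totals alone the rise of Scd2 from D7 to D18 was 0.27 (log2) and did not pass (edgeR adjusted p = 0.070). Scd1 held 211, 215 and 201 CPM in MEF, 186, 210 and 197 in D7, 202, 285 and 185 in D18, and 247, 222 and 248 in D32, with no step past the test, and 79.9 and 49.1 in P-RPE. D32 exceeded P-RPE by 1.89 for Scd1 (log2, SE 0.20, edgeR adjusted p = 2e-06) and by 0.27 for Scd2 (log2, SE 0.13), which did not pass. The ratio of Scd2 to Scd1 averaged 4.48 in MEF, 8.59 in D7, 11.1 in D18 and 11.5 in P-RPE, and ran from 3.39 to 3.90 in the D32 libraries. D18 replicate 2 stood at 7.44 beside 12.5 and 13.3. The 2 transcripts align at 88.0% identity over 1195 bases, and the counting of reads that match both is not known here. D18 replicate 2 had the lowest Scd2 and the highest Scd1 of the D18 libraries. The D18 group is also the one with the highest astrocyte markers, and with myelin markers at 899 to 1919 CPM against 161 and 1406 CPM in the P-RPE libraries. Adipocyte markers were low throughout, at 8.44 to 38.7 CPM in D18. The part of these cells in the Scd2 level was not tested.

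**Figure D5:**
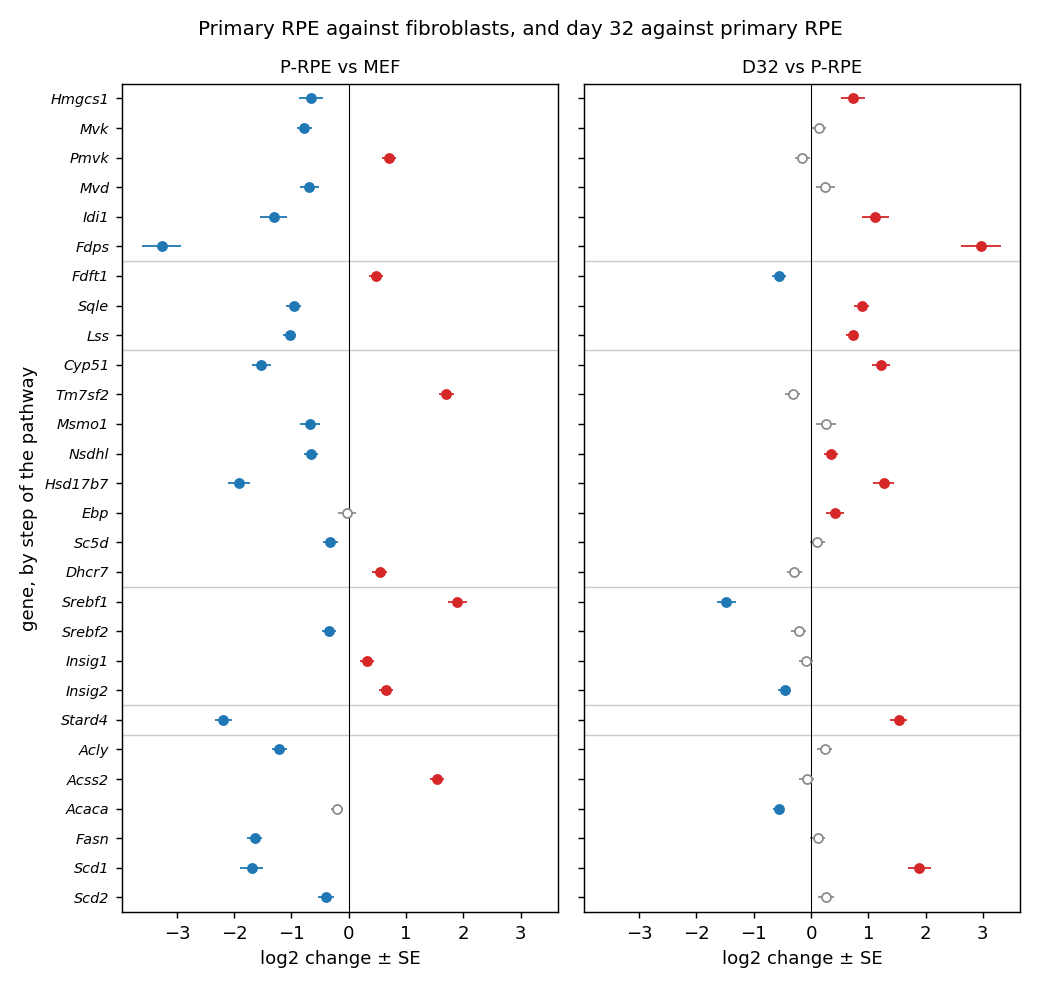
The log2 change (edgeR, with its standard error) of each gene in P-RPE against MEF (left) and D32 against P-RPE (right), in pathway order, with red for higher, blue for lower and open grey for not past adjusted p under 0.05; the 2 panels share the P-RPE libraries, so they are not independent. The left panel has 18 blue and 8 red points, and the right panel 11 red and 4 blue.

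Other genes around the pathway were taken from 5 lists. Their counts are to be read against all genes tested, of which 28.5% were higher and 26.5% lower at D7 than in MEF, and 29.2% rose and 27.4% fell from D7 to D18. Of 13 other sterol and isoprenoid enzymes, 8 were lower and 1 higher at D7 than in MEF, and 3 rose and 3 fell from D7 to D18. Without D7 replicate 2 the higher count at D7 was 0, and the 3 that rose to D18 became 1 under library totals alone and 5 in DESeq2 or with a minimum mean of 5 CPM. Lbr, which carries a sterol C14 reductase activity like that of Tm7sf2, went opposite to it, from 57.2 CPM in MEF to 21.4 in D7 and 8.23 in D18, with log2 changes of -1.42 (SE 0.14) and -1.38 (SE 0.14). Of 9 genes of SREBP processing, 4 were lower and 2 higher at D7. The count of higher genes was 1 under RLE size factors, no filter, DESeq2 or limma-voom and without any single MEF library, D7 replicate 1 or 2, D18 replicate 2 or D32 replicate 3, and the count of lower genes was 2 under library totals alone. Scap, the escort of SREBP, rose by 0.83 (log2, SE 0.12, edgeR adjusted p = 3.3e-05) by D7 and was highest in P-RPE, at 348 CPM against 120 in MEF (log2 change 1.53, SE 0.13). Tmem97, a sterol-responsive gene of the endoplasmic reticulum and lysosome, fell by 1.56 on the log2 scale by D7 (SE 0.16, edgeR adjusted p = 1.2e-06).

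Of 24 other genes of fatty acid synthesis, elongation and desaturation, 12 were higher and 6 lower at D7 than in MEF, 16 rose and 2 fell from D7 to D18, and 18 were higher and 2 lower in P-RPE than in MEF, where 39.3% of all genes were higher and 31.4% lower. The 2 that fell to D18 became 4 without D7 replicate 2 or D32 replicate 2 and 5 under library totals alone. D32 was lower than P-RPE in 19 and higher in 3, against 26.8% and 27.1% of all genes, and without P-RPE replicate 1 the higher count was 1. With the 11 of 28 genes of sterol and fatty acid synthesis that were higher in D32 than in P-RPE, the lists thus had their counts on different sides, a difference that was not tested. Thrsp, a lipogenic regulator, averaged 0.059 CPM in MEF, 37.4 in D7, 32.6 in D18, 2.84 in D32 and 6.22 in P-RPE. Elovl2, an elongase of very long polyunsaturated chains known for its role in the retina, averaged 0.0184 CPM in MEF, 1.56 in D7, 4.81 in D18, 7.06 in D32 and 65.6 in P-RPE. D32 was below P-RPE for Elovl2 by a log2 change of -3.21 (SE 0.32, edgeR adjusted p = 1.2e-06).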

How the data were processed

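RNA was sequenced as paired reads from 14 mouse libraries. The authors deposited raw counts per gene symbol. Per the submitters' processing notes, the tools were STAR 2.7.11a with featureCounts, edgeR 4.0.16, limma 3.58.1, and the builds mm10 and GRCm38. A strand setting and the treatment of reads that match several genes are not given in the sources used here. Another 10 per-sample columns, of human libraries, were not analysed here.

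Counts were filtered with filterByExpr, which left 20562 genes, scaled by TMM and fitted in edgeR 4.0.16 (R 4.3.3) with a quasi-likelihood model of 5 group means, and p-values were adjusted by Benjamini-Hochberg over all genes tested. Calls are at adjusted p under 0.05. Levels are TMM-scaled CPM. The replicate number is not in the model. Other scalings, filters and tools, a replicate block and leaving out each library were tried as alternatives. The code was tested on simulated data. Exon overlaps and near-identical transcripts came from GENCODE vM21 (blastn 2.17.0), and promoter windows from RefSeq.

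All 28 genes are named, and of the other lists the called genes with the largest changes and the most abundant gene that did not pass were eligible. The genes and all lists were chosen with earlier results of these data known.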

Additional observations from a re-analysis of the deposited data

How the results depend on the processing

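Over 3886 recomputed changes of the 28 genes, 3723 kept their side of the threshold, 92 no longer passed, 70 came to pass, and 1 reversed. Of the 3723, 2258 come from fits that leave out 1 library. Often that library is in neither group compared, so the share kept does not measure how firm the calls are. The reversed change was Srebf2 in D7 against MEF, which read 0.24 under library totals alone. Among the 3723 are 54 estimates that passed under neither setting and changed sign. Library totals alone moved most. D7 against MEF then gave 4 genes higher and 3 lower by 2-fold or more, with a median of -0.29. D18 against D7 gave 1 higher by 2-fold or more, with a median of 0.26. D32 against D18 gave 5 higher. D32 against MEF gave 8 higher and 7 lower, with a median of 0.00036, and D32 against P-RPE 17 higher, with a median of 0.47. The sterol sum became 980 CPM in MEF and 664 CPM in P-RPE, and the fatty acid sum 2253 CPM in MEF, 3217 CPM in D7 and 1190 CPM in P-RPE. Under RLE size factors the sums in MEF were 1087 and 2500.3 CPM. In D32 against MEF, 2 genes were lower by 2-fold or more under RLE size factors, with no filter, in DESeq2 1.42.0 and with the 2 groups alone. A minimum mean of 5 CPM removed Fdps, so 0 genes rose by 2-fold or more from D18 to D32, and it gave 8 higher in D32 against MEF. With each library left out in turn, genes higher by 2-fold or more in D7 against MEF numbered 1 to 2. In D32 against MEF the counts were 3 to 5 higher, 7 to 13 lower and 1 to 2 lower by 2-fold or more, and in D32 against P-RPE 3 to 8 lower. The cause was not tested beyond what each setting removes. Of 1668 recomputed counts of the lists, 81 moved by more than 1.5 times, and of 3119 recomputed changes of other named genes, 50 no longer passed and 58 came to pass.

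The replicate numbers recur across groups, and same-numbered libraries deviated together by correlations of -0.169 to 0.229. The same-numbered library was the best partner throughout D7 against MEF, P-RPE against MEF and D32 against P-RPE. The last had correlations of 0.229 and 0.181, with 2 P-RPE libraries to choose from. It was the best partner for some numbers in D32 against D18 and D32 against MEF, and never in D18 against D7. Low correlations among so few libraries per group cannot exclude shared cultures or batches. Nothing ties a number to a culture, so whether the libraries are paired is not known. A fit with the replicate block changed 2 calls: Idi1 rose from D7 to D18 (0.50, edgeR adjusted p = 0.0424) and Insig1 in P-RPE against MEF did not pass (0.30, edgeR adjusted p = 0.0571). Fits without all D32 or all P-RPE libraries, and the recomputed lists and ratios, were added after the data were seen. P-RPE rests on 2 libraries, and Fdps at 0.456 to 6.00 CPM is the gene where depth limits precision most.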

Other observations

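Of 12 genes of oxysterols, LXR and sterol storage, 7 were higher and 1 lower at D7 than in MEF, and 9 were higher and 1 lower in P-RPE than in MEF. Of all genes tested, 28.5% were higher and 26.5% lower in the first comparison, and 39.3% and 31.4% in the second. Cyp46a1, the brain cholesterol 24-hydroxylase, averaged 1.37 CPM in MEF, 11.5 in D7, 81.1 in D18, 7.62 in D32 and 7.46 in P-RPE. Its rise from D7 to D18 was 2.82 (log2, SE 0.18, edgeR adjusted p = 7.4e-09) and its change from D18 to D32 was -3.41 (log2, SE 0.18). Cyp27a1, the sterol 27-hydroxylase, averaged 1.89, 4.99, 21.3, 14.2 and 109 CPM in the same order, so D32 was under P-RPE by a log2 change of -2.93 (SE 0.26, edgeR adjusted p = 3.4e-07). Mylip, an LXR target that marks lipoprotein receptors for degradation, averaged 12.7, 23.7, 3.76, 30.5 and 82.9 CPM. Soat1, which esterifies cholesterol, fell by 1.02 on the log2 scale by D7 (SE 0.13, edgeR adjusted p = 1.3e-05).

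Of 12 genes of fatty acid oxidation, 7 rose and 5 did not pass by D7, 7 rose and 1 fell from D7 to D18, and 10 were higher and 1 lower in P-RPE than in MEF. The shares of all genes higher were 28.5%, 29.2% and 39.3%, and 27.4% fell from D7 to D18. Under library totals alone all 12 were higher at D7, and without D7 replicate 2 or D18 replicate 1 the count that fell to D18 was 0. Cpt1c, the brain form of the carnitine palmitoyltransferases, was higher in D32 than in P-RPE by 1.58 (log2, SE 0.23, edgeR adjusted p = 4.6e-05).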
